A study of Rattus norvegicus with 8 samples.

Results

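The calmodulin and calmodulin-dependent kinase genes were examined as a small signalling family in the rat hypothalamus. Members were chosen by gene symbol: the calmodulin genes Calm2 and Calm3, the CaMKII subunit genes Camk2a, Camk2b, Camk2d and Camk2g, the upstream kinase gene Camkk2, and the kinase genes Camk4 and Camk1d. All rows of the deposited table that carried one of these symbols were taken, which gave 99 of 73922 polyadenylation sites. These sites belonged to 8 of the 9 listed genes, among 12255 genes with a site. Camk2g carried no site in the table, which lists only sites with at least 30 reads over all libraries, so its level is not given.

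Whole transcriptome termini site sequencing (WTTS-seq) reads the 3′ ends of polyadenylated RNA, so that each count is the number of reads ending at one polyadenylation site. The tissue was the hypothalamus of male Long-Evans rats, all adult, with 8 libraries in all. By the labels, 4 of them were controls kept on standard chow, and the other 4 had diet-induced obesity after feeding with a high fat diet, both over 36 days. No transgene, deletion or drug was named for either group, and no body weight was used here.

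Calmodulin is a small protein that binds calcium and then switches on its target enzymes. Its genes encode the same protein from different chromosomes. CaMKII is a multi-subunit kinase abundant in neurons and best known for its role at synapses. CaMKK2 phosphorylates CaMKI, CaMKIV and the energy sensor AMPK, and in the hypothalamus it is known for its part in the control of feeding. CaMKIV acts largely in the nucleus on transcription factors such as CREB, and CaMKID, the product of Camk1d, is a member of the CaMKI branch.

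The libraries held 1417531 to 1957726 reads, of which 1938 to 2634 per library fell on the family (0.128% of all reads). Control library 1 and obesity library 1 had 14788 and 10659 sites without a read, against 4062 to 6622 in the others. Libraries with the same number in the labels deviated from their group means together, so a second fit, which takes the number into account as a block, is given where it changed a count of calls. In bulk tissue, fewer cells of a type and less RNA per cell cannot be told apart. All 11 listed hypothalamic markers, among them Avp, Oxt, Pomc and Agrp, carried sites. Of 9 markers of excitatory neurons of cortex and hippocampus, 6 carried none, including Slc17a7 and Tbr1. The summed levels of every marker list overlapped between the groups. Within the library numbers, however, the hypothalamic list was lower in obesity in 4 of 4, at 1222, 1313, 1554 and 1664 CPM in control and 1052, 1227, 1289 and 1106 in obesity, where CPM are reads scaled to the library size. Avp, the largest part of that sum, was lower in 4 of 4 numbers, at 976 ± 175 CPM in control and 720 ± 90.3 in obesity. Oxt was lower without overlap, at 62.0 ± 9.99 CPM in control and 37.2 ± 10.6 in obesity (± SD over 4 libraries, edgeR adjusted p 0.921). Otp was higher without overlap, at 1.46 ± 1.10 and 5.21 ± 1.91 CPM (edgeR adjusted p 0.923). Of all genes, 3.45% did not overlap. The log2 fold change was above 0 for 5 of the 11 hypothalamic markers and below 0 for 6. The microglial list was also lower in 4 of 4 numbers, at 73.0 to 117 CPM in control and 30.04 to 90.9 in obesity. Of its 5 markers, Cx3cr1 and Tmem119 carried no site. Csf1r had 64.7 ± 15.8 CPM in control and 37.1 ± 19.0 in obesity (± SD over 4 libraries). The log2 fold changes of Aif1 and P2ry12 were -0.06 and 0.07. The 4 neuronal markers with sites summed to 2154 to 2839 CPM in control and 2217 to 2851 in obesity. Of their log2 fold changes, 2 were above 0 and 2 below. Among them, Stmn2 was lower in 4 of 4 numbers, at 299 ± 53.3 CPM in control and 195 ± 65.1 in obesity. Rbfox3 had 1036 and 952 CPM in the control and obesity libraries numbered 1, against 334 to 510 in the others. The part of these shifts in the values of the family was not tested. The summed oligodendrocyte markers ranged from 15947 to 20987 CPM in the control libraries and from 12457 to 19925 in the obesity libraries. For the astrocyte markers the ranges were from 1700 to 2335 CPM and from 1245 to 1864. The anterior pituitary markers reached 187.5 CPM in obesity library 2, against 8.85 to 90.0 in the other libraries.

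The level of each gene was taken as the sum over the sites of its main strand, the one with more reads, and scaled to CPM. A read marks an end of a transcript, so the levels are not divided by length. Over all 8 libraries, Calm3 had 389 ± 68.9 CPM (SD), Camk2b 350 ± 56.8 and Calm2 330 ± 96.6. These leading genes were not ordered beyond their spread, since Calm3 exceeded Camk2b in 5 of 8 libraries and Camk2b exceeded Calm2 in 4 of 8. Camk4 followed at 148 ± 18.1 CPM and lay below Calm2 and above Camk2a in 8 of 8 libraries. Camk2a at 74.3 ± 23.0 CPM, Camk2d at 71.7 ± 18.7 and Camk1d at 68.2 ± 20.3 overlapped each other. Camkk2 was lowest at 41.2 ± 17.3 CPM, under Camk1d in 7 of 8 libraries.

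**Figure D1:**
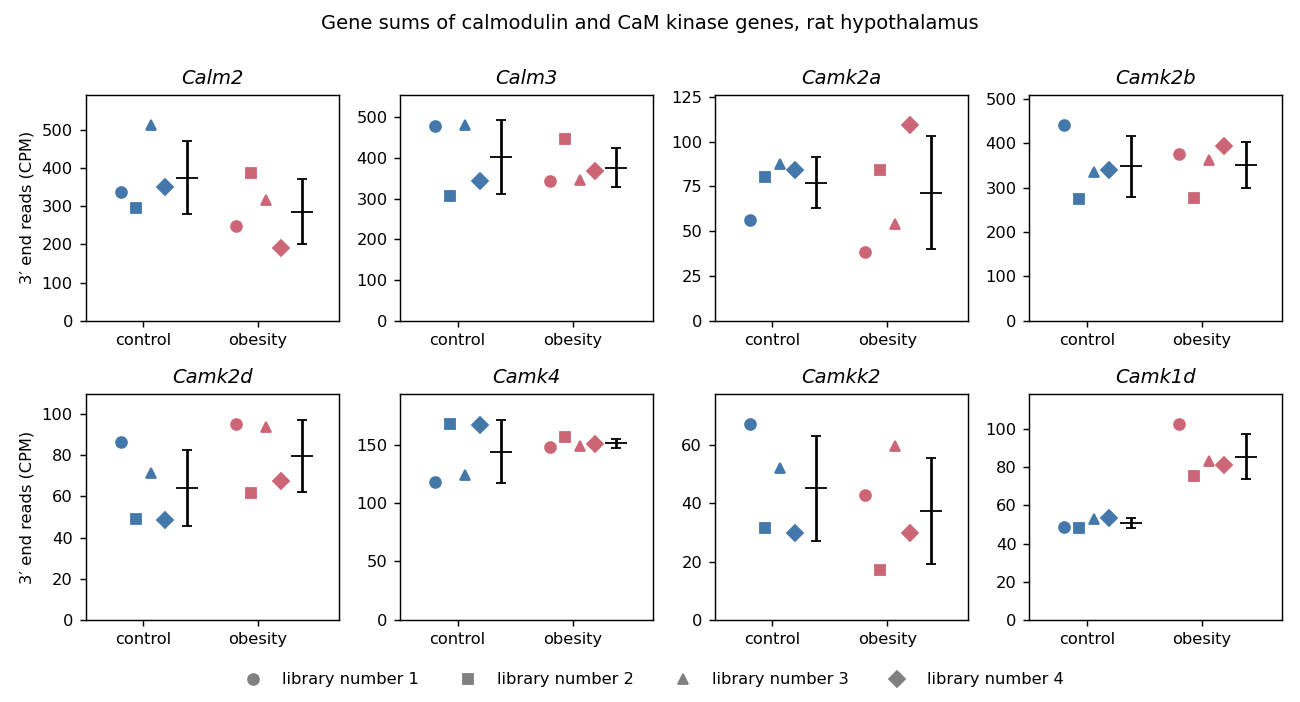
Level of each gene in CPM (y axis, from 0) in the 4 control and 4 obesity libraries, with the library number as the marker shape and the group mean ± SD as a black bar. Camk1d is the only gene whose groups do not overlap, at 48.2 to 53.2 CPM in control and 75.5 to 102.9 CPM in obesity.

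The first question was whether the 3′ end output of any of these genes differed between obesity and control. No gene passed an adjusted p of 0.1 in the quasi-likelihood test of edgeR, against 0.0% of all genes. At an unadjusted p under 0.05 there was 1 of 8 genes, Camk1d, against 5.12% of all genes. Camk1d was also the 1 gene of 8 whose groups did not overlap, against 3.45% of all genes. With the library number as a block, no gene of the family passed 0.1, against 0.277% of all genes, and likewise in the DESeq2 Wald test, against 0.0326%. In the block fit Camk1d and Calm2 had an unadjusted p under 0.05, against 10.9% of all genes. With 8 genes, these counts are too small to set apart from the background. The fold changes were above 0 for 4 genes and below 0 for 4, with a median of -0.04 on the log2 scale against 0.00 over all genes.

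**Figure D2:**
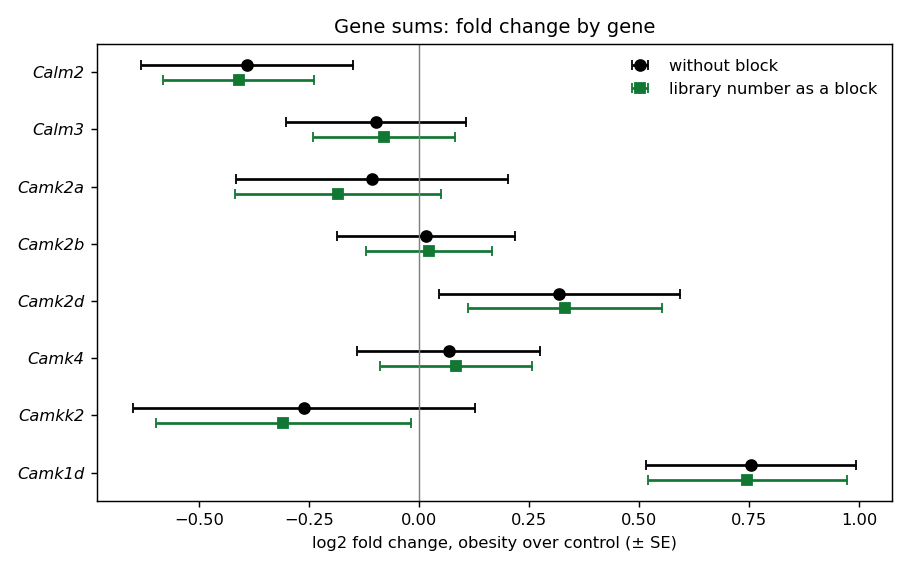
Log2 fold change of the gene sums, obesity over control, with its standard error (x axis) for each gene, from the fit without the block (circles) and with the library number as a block (squares). Camk1d lies highest at 0.75 and Calm2 lowest at -0.39, and Camk2b lies at 0.02.

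Of Calm2 and Calm3, Calm2 was the more variable. In the order of the library numbers 1 to 4, its reads were 477, 442, 633 and 463 in control and 332, 477, 541 and 279 in obesity. Reads of the other genes are given in the same order. The obesity libraries were lower within 3 of 4 numbers, while the groups overlapped through obesity libraries 2 and 3. Levels were 375 ± 96.0 CPM in control and 286 ± 85.2 in obesity (mean ± SD of 4 libraries), with obesity over control at -0.39 on the log2 scale (SE 0.24, edgeR adjusted p 0.928, unadjusted 0.122). Left out in turn, single libraries moved it to between -0.57, without obesity library 2, and -0.19, without control library 3, and it was -0.22 without obesity library 4. With the block the unadjusted p was 0.0241 and the adjusted p 0.371. Without both libraries numbered 2, the block fit gave -0.67 at an edgeR adjusted p of 0.0104. That fit was chosen after seeing the data, and 4.59% of all genes passed in it. Without the libraries numbered 1, 3 or 4, no gene of the family passed, against 0.53%, 0.0653% and 0.0% of all genes.

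Calm2 had nearly all its reads at one end. On Rnor_6.0, the site on chromosome 6 (minus strand, 11067658 to 11067693) held 99.1% of them, and the single other site, 3552 bases before it, had 0 to 10 reads per library. The difference in the gene sum is therefore that of this site, which had 477, 432, 632 and 460 reads in control and 325, 467, 538 and 279 in obesity. The sequence of calmodulin genes is also carried by pseudogenes, and Calm-ps2, looked at after its values were seen, had 799 ± 180 CPM in control and 600.2 ± 167 in obesity (± SD over 4 libraries). Its log2 fold change was -0.41 (SE 0.23, edgeR adjusted p 0.921, and 0.189 with the block). How reads that match more than one copy were placed is not given in the sources used here, so the split between Calm2 and such copies is uncertain.

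Calm3 was spread over 12 sites within 7.82 kb on chromosome 1 (minus strand). The main site (78844495 to 78844537) held 80.8% of its reads. The gene had 675, 456, 593 and 453 reads in control and 457, 550, 592 and 540 in obesity, and these ranges overlapped throughout. Levels were 402 ± 91.1 and 376 ± 48.2 CPM (mean ± SD of 4 libraries). The log2 fold change was -0.10 (SE 0.20, edgeR adjusted p 0.987).

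Differences at the minor ends of Calm3 rested on few reads. The site with the smallest p (78843576 to 78843649, 506 bases before the last) had 11, 2, 16 and 4 reads in control and 22, 43, 12 and 22 in obesity. It held 3.06% of the gene's reads, and its log2 fold change was 1.48 (SE 0.71, unadjusted edgeR p 0.054, and 0.0324 with the block). A smaller site (78844757 to 78844791), named after its values were seen, had 3, 3, 2 and 1 reads in control and 9, 9, 5 and 6 in obesity. It was the 1 site of 99 at which the groups did not overlap, against 3.11% of all sites. At such low counts its log2 fold change of 1.57 had an SE of 0.89 and an unadjusted edgeR p of 0.0994. The site with the largest fold change (78843884 to 78843932), also named after its values were seen, had 4, 1, 3 and 0 reads in control and 20, 11, 2 and 0 in obesity, which overlapped (log2 fold change 1.92, SE 1.25).

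Camk2b was the leading CaMKII gene. It took 70.9% ± 3.68 of the summed reads of Camk2a, Camk2b and Camk2d in control and 69.8% ± 3.53 in obesity (± SD over 4 libraries). Camk2a took 16.2% ± 4.56 and 14.3% ± 6.23, and Camk2d took 12.9% ± 2.10 and 15.9% ± 3.28. Not counted were 350 reads at sites without a gene within 5 kb past the last Camk2a site. No share separated the groups, and the order Camk2b first held in 8 of 8 libraries.

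**Figure D3:**
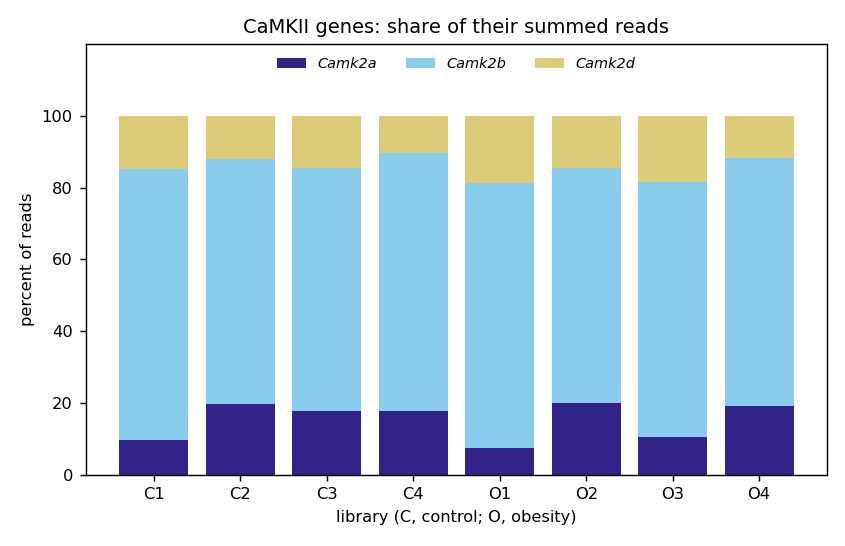
Share of each gene (y axis, percent) in the summed reads of Camk2a, Camk2b and Camk2d in each library, with control libraries as C1 to C4 and obesity libraries as O1 to O4. Camk2b takes 65.4% to 75.7% of these reads in all 8 libraries.

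The β subunit gene Camk2b had 625, 412, 414 and 446 reads in control and 500, 340, 620 and 578 in obesity, with overlapping ranges. Levels were 348 ± 69.3 and 352 ± 52.2 CPM (mean ± SD of 4 libraries), with obesity over control at 0.02 on the log2 scale (SE 0.20, edgeR adjusted p 0.997). Its 21 sites spanned 72.0 kb of chromosome 14 (minus strand). The leading site (86210818 to 86210847) held 46.8% of the reads, with 408, 128, 224 and 190 in control and 298, 81, 264 and 250 in obesity. The libraries numbered 1 were highest and those numbered 2 lowest in both groups at this site. A neighbouring site (86210906 to 86210926) had 1, 27, 41 and 32 reads in control and 0, 30, 75 and 66 in obesity, so the libraries numbered 1 were nearly empty there. The other main sites were at 86210790 to 86210793, just past the leading site, and at 86270386 to 86270389, with 5.39% and 7.93% of the reads.

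The α subunit gene Camk2a had 79, 120, 108 and 111 reads in control and 51, 104, 92 and 161 in obesity. Obesity libraries 1 and 4 were the lowest and the highest of all 8, so the groups overlapped. Levels were 77.1 ± 14.4 and 71.5 ± 31.8 CPM (mean ± SD of 4 libraries). The log2 fold change was -0.11 (SE 0.31, edgeR adjusted p 0.991). Its 13 sites spanned 102 kb of chromosome 18 (plus strand), and the leading one (56230664 to 56230688) held 28.7% of the reads and lay 66.7 kb before the last.

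The last Camk2a site (56297373 to 56297415) was the one with the smallest p. It had 19, 6, 20 and 5 reads in control and 5, 6, 4 and 3 in obesity. The log2 fold change was -1.57 (SE 0.75, unadjusted edgeR p 0.0530), with both high values in control libraries 1 and 3. Past it, 3 sites without a gene lay within 5 kb on the same strand, and the largest (56298552 to 56298576) had 21, 113, 7 and 6 reads in control and 8, 91, 3 and 34 in obesity. Its reads were highest in the libraries numbered 2. With these sites added, the log2 fold change of Camk2a was -0.06.

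Camk2d, the gene of the more widely expressed δ subunit, had 122, 73, 88 and 64 reads in control and 127, 76, 160 and 99 in obesity. The obesity library was higher within 4 of 4 numbers after scaling, while the groups overlapped. Levels were 63.9 ± 18.5 and 79.5 ± 17.5 CPM (mean ± SD of 4 libraries), with obesity over control at 0.32 on the log2 scale (SE 0.27, edgeR adjusted p 0.953). Its 14 sense sites spanned 213 kb of chromosome 2 (plus strand). The leading one (231128333 to 231128356) held 21.6% of the reads. The site with the smallest p (231115039 to 231115047) had 2, 0, 3 and 3 reads in control and 6, 3, 11 and 21 in obesity, a log2 fold change of 2.08 (SE 0.99, unadjusted edgeR p 0.054, and 0.0444 with the block).

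Camkk2, the gene of the kinase upstream of CaMKI, CaMKIV and AMPK, was the least abundant. Its reads were 95, 47, 64 and 39 in control and 57, 21, 102 and 44 in obesity. The lowest and the highest count were both in obesity, in libraries 2 and 3. Levels were 45.1 ± 17.9 and 37.4 ± 18.2 CPM (mean ± SD of 4 libraries). The log2 fold change was -0.26 (SE 0.39, edgeR adjusted p 0.983). Left out in turn, single libraries moved this value to between -0.58, without obesity library 3, and -0.00096, without control library 1, and it was -0.026 without obesity library 2. The last of its 3 sense sites, on chromosome 12 (plus strand, 39303243 to 39303254), held 80.6% of the reads. A site without a gene 1898 bases past it (39305152 to 39305165) had 31, 11, 25 and 19 reads in control and 17, 7, 41 and 6 in obesity. A second such site, 3954 bases past the last, had 0, 1, 4 and 0 reads in control and 13, 4, 14 and 7 in obesity, and it was named after its values were seen. With both added to the gene, the log2 fold change was -0.15.

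Camk4, the gene of the nuclear kinase CaMKIV, had 166, 251, 153 and 219 reads in control and 197, 193, 254 and 221 in obesity. After scaling, the obesity libraries lay within the range of the control libraries. Levels were 144 ± 26.8 and 151 ± 3.94 CPM (mean ± SD of 4 libraries), with obesity over control at 0.07 on the log2 scale (SE 0.21, edgeR adjusted p 0.991). Its 13 sense sites spanned 184 kb of chromosome 18 (plus strand), and 2 of them (25965572 to 25965611 and 25968908 to 25968928) held 23.7% and 23.6% of the reads. The first of these had 30, 77, 13 and 39 reads in control and 79, 68, 45 and 41 in obesity, with an unadjusted edgeR p of 0.315.

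Camk1d had the widest spread of ends and the clearest separation between the groups. Its reads were 69, 72, 65 and 70 in control and 137, 93, 142 and 119 in obesity. Every obesity library lay above every control library, and the lowest obesity library was number 2. Levels were 50.8 ± 2.61 CPM in control and 85.6 ± 12 in obesity (mean ± SD of 4 libraries). The log2 fold change was 0.75 (SE 0.24, unadjusted edgeR p 0.00585). After adjustment over all genes it did not pass, at an edgeR adjusted p of 0.921, and at 0.188 with the block. Left out in turn, no single library moved the log2 fold change outside 0.65 to 0.81. Without both libraries numbered 2, the block fit gave 0.78 at an edgeR adjusted p of 0.0934. That fit was chosen after seeing the data, and 4.59% of all genes passed in it. In the block fits without the libraries numbered 1, 3 or 4, Camk1d did not pass.

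The higher reads of Camk1d were not at one end. Its 13 sense sites spanned 400 kb of chromosome 17 (plus strand, 76536206 to 76936019), and the leading site (76536206 to 76536220), the most 5′ of them, held 18.4% of the reads. The fold change was above 0 at 12 of the 13 sites. The site with the smallest p (76908060 to 76908071, 27948 bases before the last) had 5, 2, 0 and 1 reads in control and 19, 4, 32 and 13 in obesity. Its log2 fold change was 2.88 (SE 0.90, unadjusted edgeR p 0.00606, adjusted p 0.471 with the block). It was the 1 site of 99 in the family with an unadjusted p under 0.05, against 3.14% of all sites.

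Without that site, Camk1d had 64, 70, 65 and 69 reads in control and 118, 89, 110 and 106 in obesity, and the groups still did not overlap. The neighbouring end (76908016 to 76908025, 4.69% of the reads) was named after its values were seen, with 3, 2, 0 and 0 reads in control and 0, 22, 8 and 1 in obesity. The 2 sites on the opposite strand, whose assignment to Camk1d is uncertain, summed to 14, 44, 22 and 53 reads in control and 19, 40, 61 and 54 in obesity, which overlapped.

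**Figure D4:**
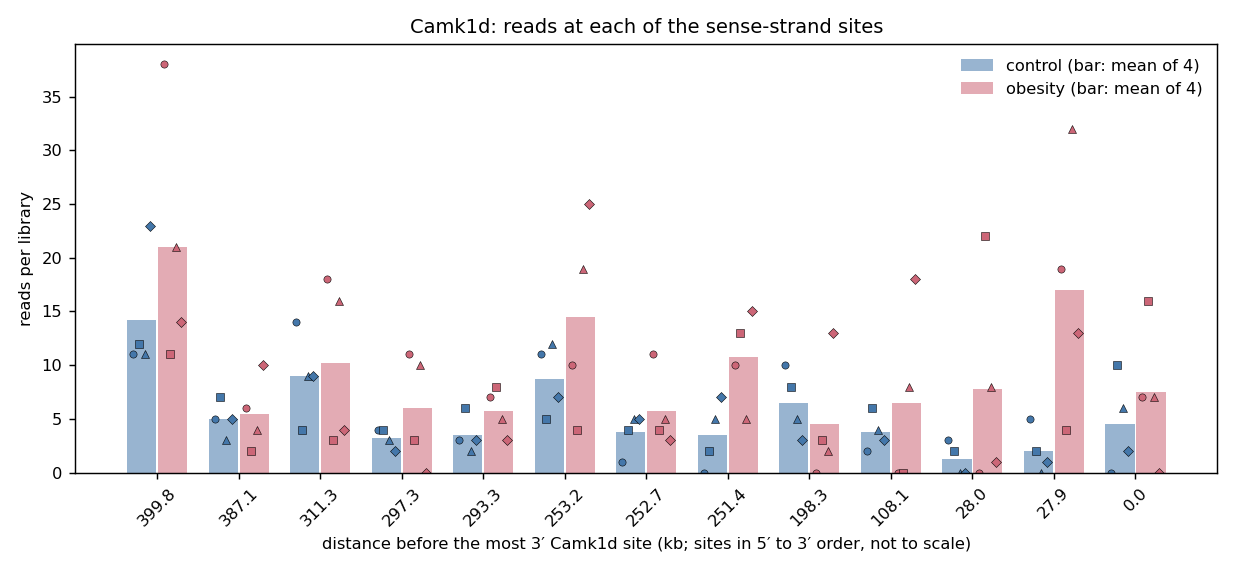
Reads per library (y axis) at the 13 sense sites of Camk1d in 5′ to 3′ order, labelled with their distance before the last site in kb (x axis, not to scale), with bars for the mean of 4 libraries and points for single libraries. The obesity mean is below the control mean at the ninth site and above it at the other 12, and points overlap between groups at every site.

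The fold changes over all genes were higher where the first and the last site of a gene lay farther apart, a relation that was examined after the data were seen. Over all genes, the median log2 fold change was -0.10 for spans under 1 kb, 0.00 for 10 to 50 kb, 0.18 for 200 to 400 kb and 0.25 from 400 kb. Of the 246 genes in the last class, 90.7% had a fold change above 0. Reads in genes that spanned at least 200 kb made up 14% to 15.9% of each control library. They made up 14.9% of obesity library 2 and 17.7% to 19.0% of the other obesity libraries.

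Camk1d, at 399.8 kb, belonged to the class from 200 to 400 kb and lay 0.57 above its median. Of the 365 genes in that class, 16 (4.38%) had a fold change at or above that of Camk1d. Camk2d lay 0.14 above the same median. Camk1d lay just under the border to the class from 400 kb, whose median was 0.25. An unadjusted edgeR p under 0.05 was found for 7.95% of genes from 200 to 400 kb and for 13.0% from 400 kb. Genes higher in obesity without overlap made up 4.38% and 7.72% of these classes. Within the family, Camk1d and Camk2d had the widest spans and the highest fold changes. Calm2 and Calm3 had the narrowest spans and fold changes below 0, as did Camkk2 and Camk2a with intermediate spans. The part of this relation in the difference of Camk1d was not tested.

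**Figure D5:**
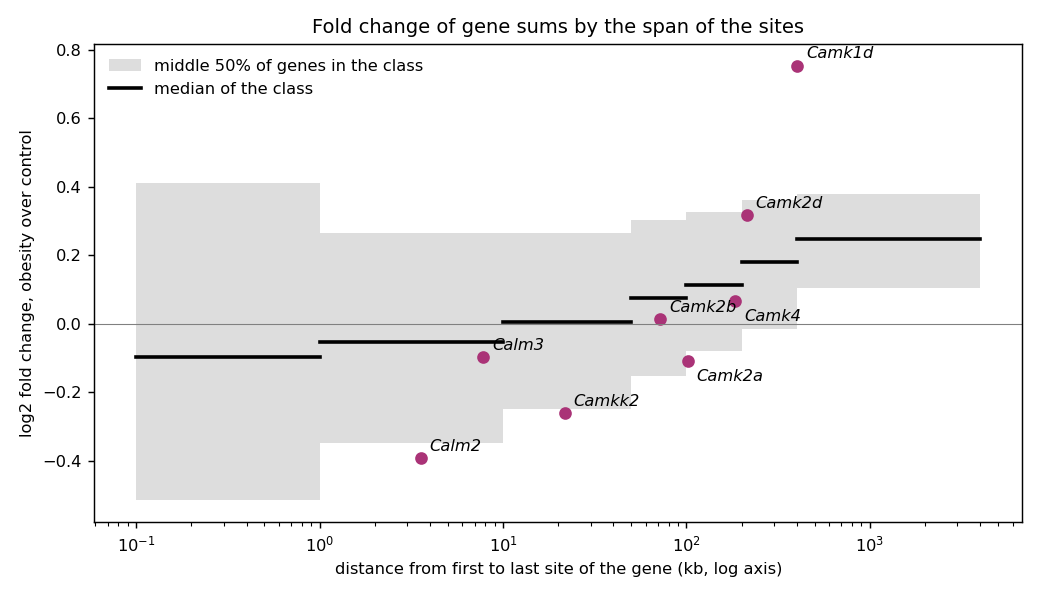
Log2 fold change of the gene sums, obesity over control (y axis), against the distance from first to last site (x axis, kb, log scale), with the median and the middle 50% of all genes per span class as black lines and grey boxes, and the family as points. The class medians rise from -0.10 under 1 kb to 0.25 from 400 kb, and Camk1d lies 0.57 above its class.

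The second question was whether the groups used short and long 3′ ends of a gene differently. For each gene, the sites with at least 5% of its reads were taken as main sites, and the share of the most 3′ of them was compared by a 2-sided exact permutation test. The smallest p that 4 against 4 libraries can give is 0.0286. Calm2 and Calm3 had 1 main site each and so gave no value. Of the other 6 genes, 0 had an exact p under 0.05 and 0 had groups that did not overlap, against 3.45% of 4382 genes for either.

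Camkk2 ended mostly at its last main site, with 97.9%, 80.9%, 81.3% and 64.1% in control and 84.2%, 90.5%, 79.4% and 50% in obesity. The libraries numbered 4 were lowest in both groups. Means were 81.0% ± 13.8 and 76.0% ± 17.9 (± SD over 4 libraries, with an exact permutation p of 0.657). The sites without a gene past the last Camkk2 site were not counted, with 200 reads over all libraries against 378 at that site. Camk2d put 32.0% ± 18.5 of its main-site reads at the last main site in control and 30.3% ± 10.5 in obesity (± SD over 4 libraries, with an exact permutation p of 0.943). For Camk4 the shares were 24.6% ± 12.3 and 21.7% ± 5.05 (± SD over 4 libraries, with an exact permutation p of 0.8).

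The remaining kinase genes used the last main site less. Camk2a had 27.1%, 6.90%, 23.8% and 7.46% in control and 25%, 7.14%, 6.90% and 2.91% in obesity. Obesity library 3 was low where control library 3 was high, and the other numbers differed less. Means were 16.3% ± 10.7 and 10.5% ± 9.87 (± SD over 4 libraries, with an exact permutation p of 0.400). The sites without a gene past the last Camk2a site were not counted, with 350 reads over all libraries against 68 at that site. Camk2b had 9.57% ± 7.91 and 10.1% ± 9.91 (± SD over 4 libraries, with an exact permutation p of 1.00). Camk1d had 8.02% ± 7.99 and 10.3% ± 12.5 (± SD over 4 libraries, with an exact permutation p of 0.8).

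The split of reads over all sites of a gene was tested separately with the Simes p of edgeR. No gene of the 8 passed an adjusted p of 0.1, against 0.0% of 7996 genes. The lowest unadjusted Simes p was 0.227, for Camk1d, and 0 of the 8 were under 0.05, against 1.39% of genes. With the block, 0 of the 8 passed 0.1, against 0.0125% of genes, and 0 were under 0.05, against 2.79%. At the level of single sites, 0 of 99 passed an adjusted p of 0.1, against 0.00135% of all sites. The same count of 0 was found with the block, against 0.00541%, and in the DESeq2 Wald test, against 0.0135%. With the block, 4 sites had an unadjusted p under 0.05, against 6.09% of all sites. These were the leading Calm2 site, at 0.0452, and the Calm3, Camk2d and Camk1d sites described above.

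The number of ends differed widely within the family. The median gene of the table had 2 sites, and 11.7% of genes had 10 or more. Calm3, Camk2a, Camk2b, Camk2d, Camk4 and Camk1d were among the latter. Among genes with 10 or more sites, the leading site held a median of 23.1% of the reads, with the middle 50% of genes between 16.2% and 35.6%. Camk1d, Camk2d, Camk4 and Camk2a lay within that range, and Camk2b and Calm3 above it. Reads on the opposite strand made up 28.6% of the Camk1d reads, 16.3% of Camk2d, 11.3% of Camkk2 and 9.86% of Camk4, and none of the other genes had such sites.

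A list of 48 other genes of calcium and calmodulin signalling was set beside the family, and 45 of them had sites. No gene of the list passed an adjusted p of 0.1 in edgeR in either direction. At an unadjusted p under 0.05 there was 1 of 45 (2.22%), against 5.12% of all genes. With the block there were 5 of 45 (11.1%), against 10.9% of all genes. The fold change was above 0 for 21 and below 0 for 24, with a median of -0.06.

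The smallest p among the lower genes was that of Ppp3r1, the regulatory subunit of calcineurin, the phosphatase that calmodulin activates. It had 80, 114, 86 and 93 reads in control and 85, 55, 59 and 50 in obesity, a log2 fold change of -0.63 (SE 0.28, unadjusted edgeR p 0.0392, adjusted p 0.921). Obesity library 1 lay within the control range. Next were the CaMKII inhibitor gene Camk2n1 at -0.45, the plasma membrane calcium pump gene Atp2b1 at -0.32 and the calmodulin-stimulated adenylyl cyclase gene Adcy1 at -0.87. Atp2b1 was the 1 gene of 45 (2.22%) whose groups did not overlap after scaling, against 3.45% of all genes. It had 2704, 2499, 2113 and 2094 reads in control and 1697, 1695, 2401 and 2170 in obesity (1724 ± 138 and 1383 ± 84.0 CPM, SD, n = 4). Its adjusted edgeR p was 0.921, and 0.337 with the block.

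The higher genes with the smallest p were Gria1, which encodes an AMPA receptor subunit that CaMKII phosphorylates, at 0.33, Camk1g at 0.70, Camta2, a calmodulin-binding transcription activator gene, at 0.55, and Camk1 at 0.42. Camk1g and Camk1 belong to the same CaMKI branch as Camk1d. Camk1g had 23, 32, 6 and 23 reads in control and 38, 30, 49 and 25 in obesity, and Camk1 had 31, 62, 48 and 74 and 53, 50, 80 and 125. Both overlapped between the groups, with unadjusted edgeR p-values of 0.133 and 0.240.

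The pattern of Camk2a over the 8 libraries was compared with that of 6137 genes with a mean of at least 20 CPM, as the root mean square difference of centred log2 CPM. The most alike were Topors at 0.16, Clasp1 at 0.16, Zfp57 at 0.17, Adcy5 at 0.17 and Dffa at 0.18, against a median of 0.60 over all genes compared. Topors had 123, 214, 144 and 186 reads in control and 99, 162, 155 and 231 in obesity, so that it too was lowest in the libraries numbered 1. Within the family, Camk4 had the smallest difference from Camk2a, at 0.45, and Camkk2 the largest, at 0.93. The log2 CPM of Camk2a itself had an SD of 0.49 over the 8 libraries. A difference of 0.45 is about as large as that spread, so it does not show a shared pattern. These values describe 8 libraries that share their numbers and depths.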

How the data were processed

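The deposited values were raw read counts per polyadenylation site, made by the authors without normalization. Per the labels, the tools and build named were Bowtie2 2.2.3 and Rnor_6.0. The site calling and gene assignment are not given in the sources used here. The paper linked to the series describes another exposure, so groups follow the labels and no method was taken from it. Of the 73922 sites, 65913 had a gene, and 273 whose symbol field held a mark were treated as having none. Reads carry no molecular identifiers, and priming at A-rich stretches can be counted as an end. Sites could not be classed by exon, intron or UTR without a Rnor_6.0 genome, which was not used here, and no sequence is printed.

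Counts of all sites, and gene sums over the strand with most reads, were fitted with edgeR 4.0.16 (robust quasi-likelihood F test, TMM scaling, R 4.3.3), with p-values adjusted by Benjamini-Hochberg across the whole table and a threshold of 0.1. Site usage was tested with diffSpliceDGE over 7996 genes. Long end usage needed at least 2 main sites and 20 main-site reads in every library, with 70 arrangements in the exact test. CPM are the counts scaled to the TMM-adjusted library size. The SE of a log2 fold change was derived from the test, as its absolute value divided by the square root of the F statistic. It therefore holds no information beyond the fold change and that statistic. DESeq2 1.42.0 served as an alternative. Scripts were tested on simulated counts.

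Named sites are the main sites and the site of each gene with the smallest p at a mean of at least 2 CPM. Pathway genes named are the 4 with the smallest p in each direction, and for Camk2a the 5 genes most alike. The members and lists were chosen with earlier results of these data known. Same-numbered libraries correlated in their deviations at 0.32 to 0.50, libraries of other numbers at -0.29 to 0.12, so a number was treated as a pair of libraries. What a shared number means is not in the labels, nor whether each library is 1 rat, so the p-values measure the spread between these libraries. No pair of libraries agreed within sampling noise.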

Additional observations from a re-analysis of the deposited data

Results flagged for a closer look

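Of 44 checks for a library far from the others of its group, 1 singled out a value, where chance gives about 2.2. At the Camk2b site with the smallest p (chromosome 14, 86262990 to 86263014), control library 4 had 7.25 CPM, while the other control libraries had 3.38 to 3.67. Its reads were 6, 6, 5 and 11 in control and 12, 11, 12 and 17 in obesity, so the difference rests on about 5 reads. The log2 fold change of the site was 0.75 (SE 0.61, unadjusted edgeR p 0.239).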

How the results depend on the processing

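No long end of the family was called under any alternative run, but that test could hardly give a call. With the block its smallest possible exact permutation p was 0.125, so no gene could pass. In the other runs the smallest was 0.0286, so a gene could pass after adjustment only if very many genes shared that value. No gene, site or site usage of the family was called under any alternative run, except in a block fit of gene sums. That fit left out both libraries numbered 2, was chosen after seeing the data and called 2 genes, Calm2 and Camk1d. It also called 4.59% of all genes, against 0.277% in the block fit of all 8 libraries. With the replicate block, which follows the pairing of the library numbers, members at an unadjusted p under 0.05 rose to 2 genes and 4 sites, and the calls over all features were 34 genes, 4 sites and 1 gene for site usage. The DESeq2 Wald test called 4 genes and 10 sites over all features and gave 3 member sites at an unadjusted p under 0.05. DESeq2 size factors also gave 3 such sites. With filterByExpr there were 0 such sites and 0 calls over all sites. The block changed no other call of the family. Leaving out 1 library at a time gave 1 to 2 member genes, 1 to 4 member sites and 0 to 1 genes for site usage at an unadjusted p under 0.05, and 0 to 1 calls over all genes and 0 to 1 over all sites.

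Directions of small differences turned. In block fits without 1 number, chosen after seeing the data, the log2 fold change of Calm3 was 0.055 without number 1 and 0.055 without number 3, and that of Camk2b was -0.0068 without number 3 and -0.025 without number 4. Without 1 library, the log2 fold change ranged from -0.21 to 0.00 for Calm3 (0.0045 without control library 3), -0.38 to 0.10 for Camk2a, -0.082 to 0.15 for Camk2b and -0.019 to 0.15 for Camk4. The difference in long end usage, in percentage points, ranged from -10.6 to 3.67 for Camkk2, -4.37 to 3.60 for Camk2b, -3.82 to 5.71 for Camk1d, -6.79 to 2.82 for Camk4 and -9.23 to 5.45 for Camk2d. For Camk2b it was -0.125 with the most 3′ of all sites and -2.87 with the share of the terminal 3 kb, the latter chosen after seeing the data. The mean distance from the last site turned for Camk2b (1183 bases) and Camk2d (-18798 bases). The cause was not tested. Most member sites held few reads, with a median total of 59 over 8 libraries. How large a change at a single minor end had to be to be detected at this depth was not tested.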
